A study of Mus musculus with 10 samples.

Results

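The naïve pluripotency transcription network is described here by 10 genes, which were taken by name from the deposited tables of 21853 protein-coding genes. They are Pou5f1, Nanog, Esrrb, Tfcp2l1, Tbx3, Nr5a2, Nr0b1, Prdm14, Zfp42 and Tcl1, and each was found once in the table of every library. Bulk RNA was measured in 10 libraries, 2 for each of 5 mouse ESC lines, in an experiment on the place of glycogen synthase and AMPK in naïve pluripotency. Naïve ESCs (J1, a mouse ESC line with the genotype WT) were grown on gelatin with serum, LIF, the MEK inhibitor PD0325901 and the GSK3 inhibitor CHIR99021. GKO is labelled GYS1 KO and was made with Cas9 and a guide to exon 9 of Gys1, the muscle-type glycogen synthase. AKO is labelled AMPK KO and was made with plasmids against AMPK alpha 1, the product of Prkaa1, while DKO is labelled with both knockouts. Primed ESCs (PJ1, genotype WT, cell line J1) were grown on Matrigel in medium with serum replacement. The paper's methods list bFGF and Activin A in the media for primed cells, and neither LIF nor the inhibitors. The growth protocol names J1 and PJ1, and the knockout lines carry the cell line label J1. Neither the labels nor the study's methods say which clones or cultures gave the libraries. The p-values therefore measure the spread between these libraries, which may be technical, and a difference between clones cannot be told apart from the effect of a knockout.

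In naïve ESCs these genes form a self-supporting circuit. POU5F1 (OCT4) is required for pluripotency in naïve and primed cells alike, and NANOG stabilizes it. ESRRB, TFCP2L1, TBX3 and NR5A2 couple the circuit to LIF and to the release of TCF7L1 repression that follows GSK3 inhibition, and NR0B1 binds nuclear receptors and OCT4 as a cofactor. PRDM14 restrains FGF signalling and DNA methylation, ZFP42 (REX1) is a zinc finger protein whose gene is switched off early in the exit from the naïve state, and TCL1 is a coactivator of the kinase AKT and not a DNA-binding factor.

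The values are TPM, an abundance within a library that is corrected for transcript length, so that levels can be compared between genes, but that keeps no record of sequencing depth. The listed genes summed to between 500162 and 578952 TPM per library, and between 10537 and 11113 genes reached 1 TPM. Prkaa1 was at 15.5 and 16.6 TPM in the naïve line, 7.24 and 6.94 in AKO, 12.2 and 12.0 in GKO, and 2.30 and 2.04 in DKO. Prkaa2, which encodes the other catalytic subunit, AMPK alpha 2, and was not targeted, had means of 2.40 TPM in the naïve line, 2.57 in AKO, 3.28 in GKO and 3.20 in DKO. The naïve libraries held 11.5 and 10.8 TPM of Gys1, against 9.70 and 9.98 for GKO and 12.1 and 11.7 for DKO, a measure that does not check a small indel. The Y-linked genes Eif2s3y and Ddx3y were listed at 0 in the naïve, AKO and primed libraries. Eif2s3y was at 38.0 to 41.5 TPM in GKO and at 37.3 and 37.4 TPM in DKO, and Ddx3y was at 8.1 and 7.8 TPM in GKO and at 22.9 and 20.9 TPM in DKO. These transcripts thus set GKO and DKO apart from the line they are compared with, and Ddx3y also differed between GKO and DKO. The part of these differences in the results was not tested. In bulk RNA, fewer cells that express a gene and less RNA per cell cannot be told apart.

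Promoter windows of the mouse assembly GRCm38.p6 from RefSeq, each from 250 bases before to 50 bases after an annotated start, were matched by symbol for 8 of the 10 genes. Tbx3 and Prdm14 had none. The following 4 windows are shown because their genes gave the different patterns described below: Nanog was higher in DKO, Pou5f1 and Zfp42 were not called in any knockout line, and Tcl1 moved in opposite directions in GKO and DKO. Sequences are 5′ to 3′ on the strand of the gene, and capitals mark the motif matches. The windows are chr6:122707315-122707614 on the plus strand for Nanog, chr17:35505782-35506081 on the plus strand for Pou5f1, chr8:43306960-43307259 on the minus strand for Zfp42 and chr12:105222688-105222987 on the minus strand for Tcl1.
Nanog: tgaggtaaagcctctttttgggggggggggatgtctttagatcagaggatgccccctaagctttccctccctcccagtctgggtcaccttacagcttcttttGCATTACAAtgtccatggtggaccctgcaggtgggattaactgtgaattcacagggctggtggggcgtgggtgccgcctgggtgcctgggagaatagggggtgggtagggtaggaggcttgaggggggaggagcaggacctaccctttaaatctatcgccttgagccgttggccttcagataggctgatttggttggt
Pou5f1: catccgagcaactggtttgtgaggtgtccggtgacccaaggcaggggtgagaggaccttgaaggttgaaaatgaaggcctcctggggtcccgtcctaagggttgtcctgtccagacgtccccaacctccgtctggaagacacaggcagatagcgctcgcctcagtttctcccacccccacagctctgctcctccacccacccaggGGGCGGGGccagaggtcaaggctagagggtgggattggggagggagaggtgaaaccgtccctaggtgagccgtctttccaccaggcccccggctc
Zfp42: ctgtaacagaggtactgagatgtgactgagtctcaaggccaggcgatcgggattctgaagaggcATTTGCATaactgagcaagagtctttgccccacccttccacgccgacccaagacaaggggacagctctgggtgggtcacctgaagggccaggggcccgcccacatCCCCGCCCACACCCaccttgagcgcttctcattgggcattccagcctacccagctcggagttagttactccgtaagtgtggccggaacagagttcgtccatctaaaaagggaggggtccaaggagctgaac
Tcl1: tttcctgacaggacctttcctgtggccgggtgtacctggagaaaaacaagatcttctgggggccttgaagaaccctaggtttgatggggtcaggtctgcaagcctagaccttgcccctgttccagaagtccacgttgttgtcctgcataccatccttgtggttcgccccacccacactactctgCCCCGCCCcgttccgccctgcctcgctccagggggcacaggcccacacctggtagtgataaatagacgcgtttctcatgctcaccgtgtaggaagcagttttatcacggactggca

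Both strands were searched for 6 motifs. The core of the composite element bound by OCT4 and SOX2, GCATNACAA, was found in the Nanog window at -148 to -140 from the start and in 0.731% of all 32851 windows. The octamer ATGCAAAT was found in the Zfp42 window on the opposite strand at -186 to -179, and in 1.74% of all windows. The Zfp42 window also held the KLF-type box CCACACCC at -75 to -68 (3.56% of all windows), which overlaps a GC box, GGGCGGGG, at -81 to -74. A GC box was also found at -45 to -38 in the Pou5f1 window and at -66 to -59 in the Tcl1 window, against 17.6% of all windows. The extended nuclear receptor half-site CAAGGTCA (1.56% of all windows) and the STAT motif TTCCNGGAA (1.15%) had no match in the windows of these 8 genes. A match describes the letters and is not evidence of binding.

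The network was abundant in naïve ESCs, AKO, GKO and DKO. Its 10 genes summed to 2271 and 2200 TPM in naïve ESCs, 2242 and 2257 in AKO, 2225 and 2321 in GKO, and 2391 and 2457 in DKO, against 625 and 548 TPM in primed ESCs. In naïve ESCs the order of the mean levels was Pou5f1 (826 TPM), Zfp42 (466), Nanog (435), Esrrb (180), Tfcp2l1 (110), Tbx3 (84.0), Tcl1 (57.3), Nr0b1 (35.7), Nr5a2 (27.4) and Prdm14 (15.1), and the libraries of neighbours in this order did not overlap. By mean level Pou5f1 ranked 114 among all genes and Prdm14 ranked 5090. The order was the same in AKO. In GKO, Nanog lay next to Zfp42 with overlapping libraries, and Nr0b1 passed Tcl1.

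**Figure D1:**
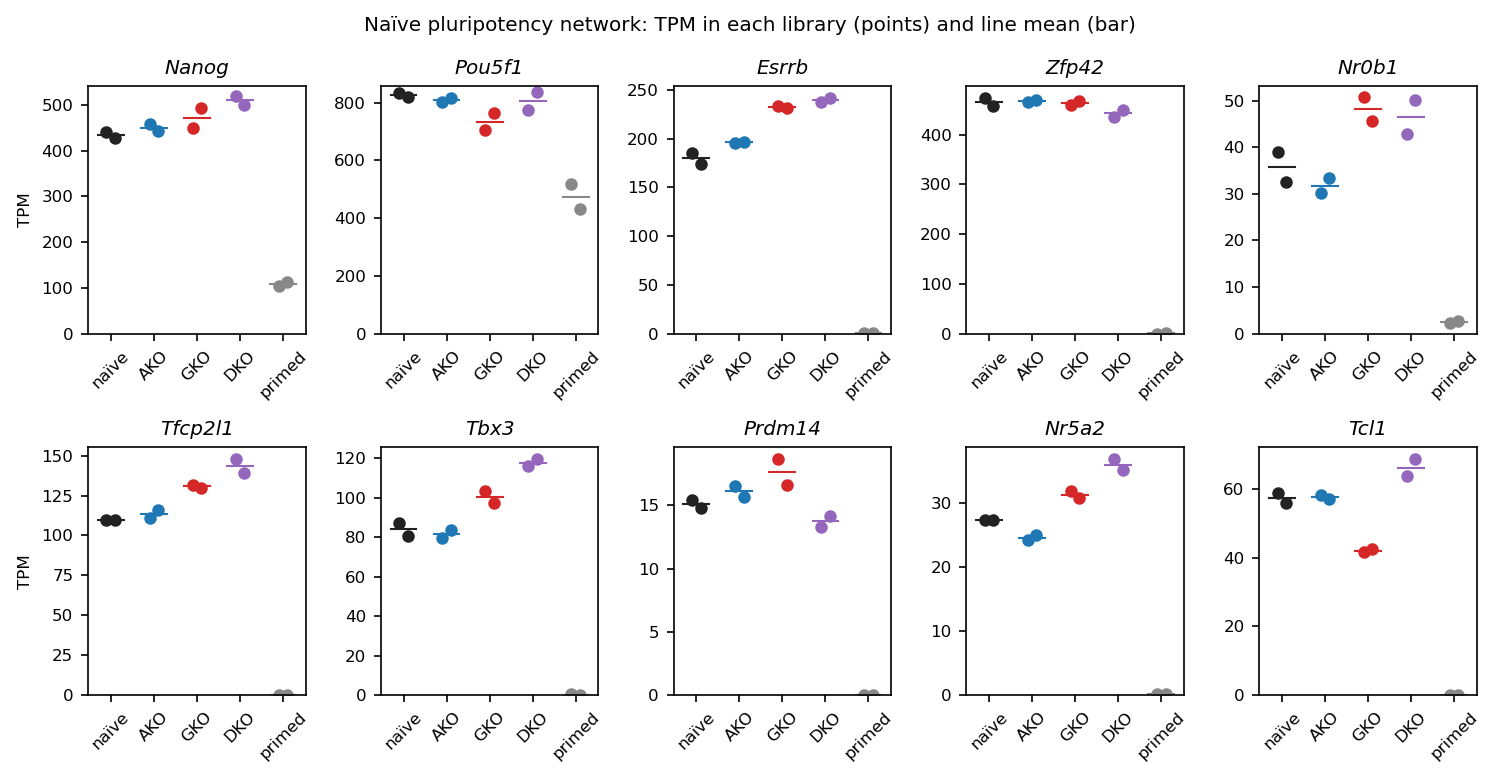
TPM of the 10 network genes in the 2 libraries of each of the 5 lines (points) with the line mean (horizontal bar); each panel has its own linear axis from 0. Nr5a2, Tfcp2l1, Tbx3 and Esrrb were higher in both GKO libraries and both DKO libraries than in both naïve libraries, and Tcl1 was lower in GKO and higher in DKO.

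Between the knockout lines and naïve ESCs the question was whether the circuit is kept when Gys1 or AMPK alpha 1 is targeted. In GKO, 6 of the 10 genes rose (Esrrb, Nr0b1, Tfcp2l1, Tbx3, Prdm14 and Nr5a2) and Tcl1 fell, at an adjusted p under 0.05 from limma with Benjamini-Hochberg adjustment over 12060 tested genes. Of all tested genes, 24.7% were called higher and 27.1% lower in the same comparison. In DKO, 7 genes rose (Esrrb, Tfcp2l1, Tbx3, Nr5a2, Nr0b1, Nanog and Tcl1), where 21.7% of all tested genes were called higher and 24.3% lower. By limma, 0 members fell in DKO, and 0 were lower at an unadjusted p under 0.05. The changes were modest in size. On the log2(TPM + 1) scale, on which all changes below are given, the median change of the members was 0.20 in GKO and 0.30 in DKO, beside medians of -0.01 in both over all tested genes. The median absolute change of the members was 0.23 in GKO against 0.24 over all genes, and 0.30 in DKO against 0.21. GKO and DKO are compared with the same naïve libraries, so their values are given side by side and not as independent observations.

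**Figure D2:**
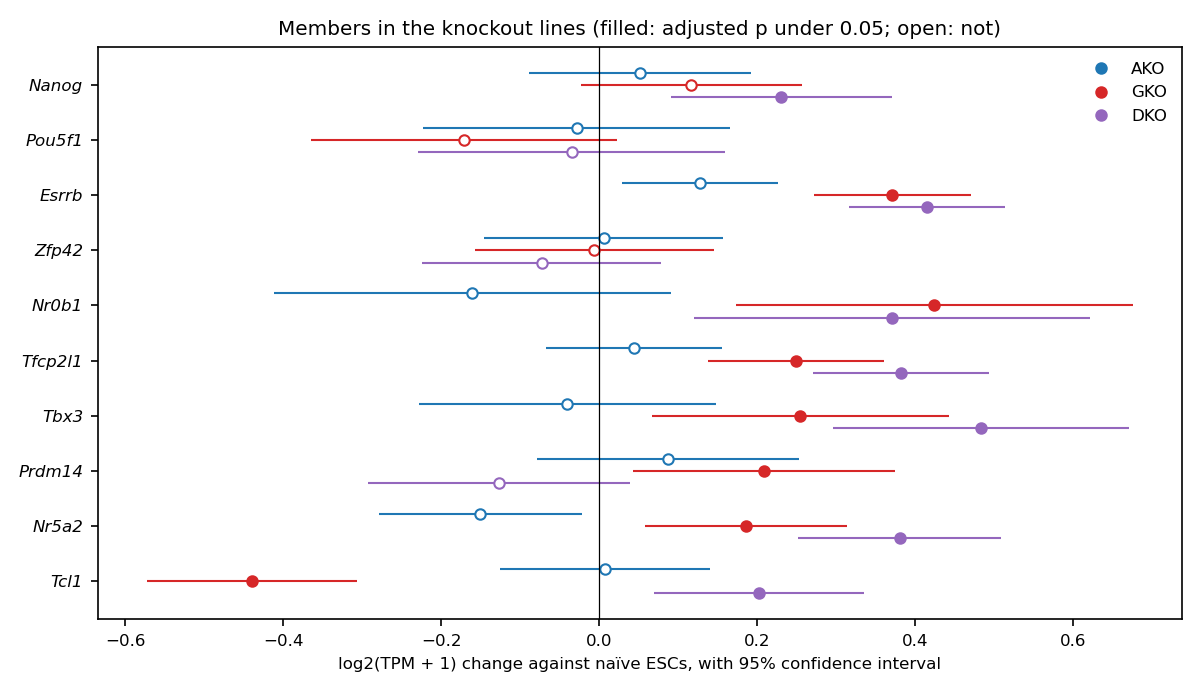
Change of each network gene in AKO, GKO and DKO against naïve ESCs on the log2(TPM + 1) scale, with 95% confidence intervals from limma; filled points have an adjusted p under 0.05. Intervals for Pou5f1 and Zfp42 include 0 in all 3 lines, and the points for Tcl1 lie on opposite sides of 0 in GKO and DKO.

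Of the factors that link the circuit to LIF and GSK3 inhibition, Esrrb, an orphan nuclear receptor, was at 186 and 174 TPM in the naïve line, 234 and 232 in GKO and 238 and 242 in DKO. All 4 libraries of GKO and DKO lay above both naïve libraries. The change was 0.37 in GKO (SE 0.04, limma adjusted p = 0.000158) and 0.42 in DKO (SE 0.04, limma adjusted p = 0.000117). Tfcp2l1, a CP2-family factor downstream of STAT3, was at 110 and 110 TPM in the naïve line, 132 and 130 in GKO and 148 and 139 in DKO, again with no overlap. It rose by 0.25 in GKO (SE 0.05, limma adjusted p = 0.00270) and by 0.38 in DKO (SE 0.05, limma adjusted p = 0.000333). Tfcp2l1 passed the threshold under all 15 alternative settings in both lines, with an adjusted p of at most 0.0297 in GKO and 0.00475 in DKO.

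Tbx3, a T-box factor, was at 87.4 and 80.5 TPM in the naïve line, 103 and 97.4 in GKO and 116 and 120 in DKO, so that the 3 lines formed separate pairs. Its change was 0.25 in GKO (SE 0.08, limma adjusted p = 0.0294) and 0.48 in DKO (SE 0.08, limma adjusted p = 0.00153). The difference between GKO and DKO for Tbx3, -0.23, was not called (95% confidence interval -0.42 to -0.04, limma adjusted p = 0.0512) and lay near the threshold. It was called under 6 of the 15 alternatives: with the replicate block (limma adjusted p = 0.0493), with genes of a mean of at least 5 TPM (0.0465), under quantile normalization (0.0273), with only the libraries compared (0.00761), without the primed libraries (0.00491) and after centring on chromosomes (0.0444). In GKO the call for Tbx3 was lost without naïve replicate 2 (0.20, adjusted p = 0.171), GKO replicate 1 (0.21, adjusted p = 0.153) or GKO replicate 2 (0.30, adjusted p = 0.0591).

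Of the other nuclear receptors, Nr5a2 (LRH-1) was at 27.5 and 27.4 TPM in the naïve line, 31.9 and 30.8 in GKO, 36.9 and 35.2 in DKO and 24.2 and 25.0 in AKO. These 4 lines did not overlap for Nr5a2, with DKO highest and AKO lowest. It rose by 0.19 in GKO (SE 0.06, limma adjusted p = 0.0223) and by 0.38 in DKO (SE 0.06, limma adjusted p = 0.000715). Leaving out any single naïve or GKO library ended the call for Nr5a2 in GKO, with changes between 0.16 and 0.21 and limma adjusted p between 0.0580 and 0.121. The libraries concerned are naïve replicates 1 and 2 and GKO replicates 1 and 2. In DKO the call for Nr5a2 held under all 15 alternatives.

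Nr0b1 (DAX1), an atypical nuclear receptor without the usual DNA-binding domain, was at 38.9 and 32.4 TPM in the naïve line, 50.7 and 45.5 in GKO and 42.7 and 50.1 in DKO. Naïve libraries lay below those of GKO and DKO, which overlapped each other. Nr0b1 had the widest spread of the members between the replicates of naïve ESCs, 0.26 on the log2 scale. Its change was 0.42 in GKO (SE 0.11, limma adjusted p = 0.0112) and 0.37 in DKO (SE 0.11, limma adjusted p = 0.0228). Without naïve replicate 2 it was 0.30 in GKO (adjusted p = 0.0905) and 0.24 in DKO (adjusted p = 0.166). It was also not called without GKO replicate 1 (0.35, adjusted p = 0.0833) in GKO, and without DKO replicate 2 (0.26, adjusted p = 0.157) in DKO.

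At the core of the circuit, Pou5f1 did not pass the test in any knockout line. Its levels were 833 and 819 TPM in naïve ESCs, 802 and 817 in AKO, 705 and 764 in GKO and 776 and 838 in DKO. Both GKO libraries lay below both naïve libraries, and the DKO libraries spanned them. The difference was -0.17 in GKO (95% confidence interval -0.36 to 0.02, limma adjusted p = 0.125) and -0.03 in DKO (-0.23 to 0.16, limma adjusted p = 0.775). In GKO it was called when only the libraries of GKO and naïve ESCs entered the fit (adjusted p = 0.0323) or when the primed libraries were left out (adjusted p = 0.0278), and under quantile normalization it was 0.05.

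Nanog was at 441 and 429 TPM in the naïve line, 458 and 443 in AKO, 450 and 494 in GKO and 521 and 500 in DKO. The DKO libraries were the highest and did not overlap those of any other line. Its change was 0.12 in GKO (95% confidence interval -0.02 to 0.26, limma adjusted p = 0.145), which was called under quantile normalization (0.23, adjusted p = 0.0371), and 0.23 in DKO (SE 0.06, limma adjusted p = 0.0143). The call for Nanog in DKO was lost without naïve replicate 2 (0.21, adjusted p = 0.0863) or DKO replicate 1 (0.20, adjusted p = 0.0787). Processed copies of Nanog and Pou5f1 are known in the mouse genome, so the share of reads that RSEM gave to each is uncertain.

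Zfp42, a common marker of naïve cells, was not called in AKO, GKO or DKO. It was at 474 and 458 TPM in the naïve line, 467 and 469 in AKO, 459 and 469 in GKO and 436 and 450 in DKO. Naïve, AKO and GKO libraries overlapped, and those of DKO lay below them. The difference was -0.01 in GKO (95% confidence interval -0.16 to 0.15, limma adjusted p = 0.949) and -0.07 in DKO (-0.22 to 0.08, limma adjusted p = 0.406).

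Prdm14, the repressor of FGF signalling genes and of Dnmt3b, was at 15.4 and 14.8 TPM in the naïve line, 16.6 and 15.7 in AKO, 18.6 and 16.6 in GKO and 13.3 and 14.2 in DKO. Among these lines, primed ESCs left aside, GKO was the highest and DKO the lowest, without overlap between neighbours. Its change was 0.21 in GKO (SE 0.07, limma adjusted p = 0.0392) and -0.13 in DKO (95% confidence interval -0.29 to 0.04, limma adjusted p = 0.186). In GKO the call for Prdm14 was lost without naïve replicate 1 (0.23, adjusted p = 0.0944), naïve replicate 2 (0.18, adjusted p = 0.173) or GKO replicate 1 (0.13, adjusted p = 0.253).

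Tcl1 was the only member that was called lower in a knockout line than in naïve ESCs. It was at 58.8 and 55.8 TPM in the naïve line, 58.2 and 56.9 in AKO, 41.6 and 42.3 in GKO and 63.6 and 68.6 in DKO. GKO kept 73.3% of the naïve mean, and DKO had 115% of it. The change was -0.44 in GKO (SE 0.06, limma adjusted p = 0.000313) and 0.20 in DKO (SE 0.06, limma adjusted p = 0.0199). The rise of Tcl1 in DKO was not called without naïve replicate 2 (0.17, adjusted p = 0.136) or DKO replicate 2 (0.15, adjusted p = 0.137), whereas the fall in GKO was called with each library left out in turn. Of the Tcl1b genes, relatives in the same cluster, Tcl1b1, Tcl1b3, Tcl1b4 and Tcl1b5 were listed at 0 in all 10 libraries.

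In AKO no member differed detectably from naïve ESCs. By limma, 0 of the 10 genes were called, where 0.224% of all tested genes (27) were called in either direction. At an unadjusted limma threshold of 0.05 there were 2, Esrrb (0.13, limma adjusted p = 0.347) and Nr5a2 (-0.15, limma adjusted p = 0.398). No member was called under any of the 11 other settings or with a library left out. The 95% confidence intervals of the differences ran from -0.09 to 0.19 for Nanog, from -0.22 to 0.17 for Pou5f1 and from -0.15 to 0.16 for Zfp42, and the widest was that of Nr0b1, -0.41 to 0.09.

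DKO against AKO asked for the effect of the Gys1 knockout in cells that also carry the AMPK alpha 1 knockout. Prkaa1 was itself lower in DKO than in AKO (-1.35, limma adjusted p = 3.39e-06) and Prkaa2 higher (0.23, limma adjusted p = 0.0405), and the part of these in the results was not tested. In this comparison 7 genes rose and Prdm14 fell, against 22.4% of all tested genes called higher and 23.9% called lower. Nr5a2 rose by 0.53 (SE 0.06, limma adjusted p = 0.000117), Nr0b1 by 0.53 (SE 0.11), Tbx3 by 0.52 (SE 0.08), Tfcp2l1 by 0.34 (SE 0.05) and Esrrb by 0.29 (SE 0.04), and these 5 were called with each library left out in turn. Nanog (0.18, limma adjusted p = 0.0407), Tcl1 (0.19, limma adjusted p = 0.0234) and Prdm14 (-0.21, limma adjusted p = 0.0390) were not. Without AKO replicate 1 or 2 or DKO replicate 2 all 3 lost their call, with adjusted p between 0.0649 and 0.186, and without DKO replicate 1 Nanog and Prdm14 did (0.169 and 0.190). Nanog was also not called with the replicate block (limma adjusted p = 0.0579), with median-ratio scaling (0.0514) or without the intensity trend (0.0642).

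The effect of the Gys1 knockout with and without the AMPK alpha 1 knockout was compared by the interaction of both knockouts, that is, the change from naïve ESCs to GKO minus that from AKO to DKO. Of all tested genes, 25.8% were called in either direction, and 3 of the 10 members were, a share near it. The interaction was 0.42 for Prdm14 (SE 0.10, limma adjusted p = 0.0172), which was higher in GKO than in naïve ESCs and lower in DKO than in AKO. For Nr5a2 it was -0.35 (SE 0.08, limma adjusted p = 0.0138), as the rise was 0.19 from naïve ESCs to GKO and 0.53 from AKO to DKO. For Tcl1 it was -0.63 (SE 0.08, limma adjusted p = 0.000986), from a fall of 0.44 in the former and a rise of 0.19 in the latter. Only that of Tcl1 was called with each library left out. Prdm14 was not called without naïve replicate 2, AKO replicate 1, DKO replicate 1 or GKO replicate 1 (adjusted p 0.0619 to 0.0694, interaction 0.35 to 0.40), and Nr5a2 was not called without naïve replicate 1 or 2, AKO replicate 1, DKO replicate 1 or GKO replicate 2 (adjusted p 0.0524 to 0.0569, interaction -0.35 to -0.31).

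Set directly against DKO, GKO was higher in Prdm14 (0.34, SE 0.07, limma adjusted p = 0.00590) and lower in Nr5a2 (-0.19, SE 0.06, limma adjusted p = 0.0219) and Tcl1 (-0.64, SE 0.06, limma adjusted p = 6.23e-05). Over all tested genes, 21.2% were called higher and 22.4% lower. Without GKO replicate 1, Tcl1 alone was called, since Prdm14 was at 0.26 (adjusted p = 0.0540) and Nr5a2 at -0.22 (adjusted p = 0.0621). Nr5a2 also lost its call without GKO replicate 2 (-0.17, adjusted p = 0.119) or DKO replicate 1 (-0.16, adjusted p = 0.125).

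Some calls also depended on the pseudocount and the filter. With log2(TPM + 0.1), GKO calls were lost for Tbx3 (limma adjusted p = 0.416), Prdm14 (0.0635), Nr5a2 (0.155) and Tcl1 (0.0904), and DKO calls for Tbx3 (0.142) and Tcl1 (0.430). On that scale the interaction was not called for Tcl1 (-0.65, limma adjusted p = 0.129) or Nr5a2 (-0.36, 0.112), Nr5a2 was not called in GKO against DKO (0.154), and Tbx3 (0.115), Prdm14 (0.0626) and Tcl1 (0.448) were not called in DKO against AKO. The GKO changes stayed close to the main ones, at 0.26 for Tbx3, 0.22 for Prdm14, 0.19 for Nr5a2 and -0.45 for Tcl1. The spread is shared with the primed libraries, where Tbx3 was at 0.331 and 0.113 TPM and Tcl1 at 0.0740 and 0. The part of these values near 0 in the lost calls was not tested. With no filter on low values, the adjusted p from limma was 0.0550 for Tbx3 and 0.0512 for Prdm14 in GKO, 0.0501 for Nr0b1 in DKO, and 0.0662 for Nanog and 0.0513 for Prdm14 in DKO against AKO.

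Called genes near several members mostly changed in the same direction, in some cases that of the member. In GKO 24.7% of all tested genes were called higher and 27.1% lower, and in DKO 21.7% and 24.3%. How such groups vary around genes other than the members was not tested. The members lie on 7 chromosomes of GRCm39. Prdm14 (bases 13183405 to 13198351), Tfcp2l1 (118555636 to 118612915) and Nr5a2 (136770303 to 136888186) are on chromosome 1, and Esrrb and Tcl1 are on chromosome 12. Tbx3 is on chromosome 5 (119806298 to 119822797), Nanog on chromosome 6 (122679780 to 122691601), Zfp42 on chromosome 8 (43743871 to 43760152), Pou5f1 on chromosome 17 (35816789 to 35822274) and Nr0b1 on chromosome X (85235338 to 85239554). For each member the median change of the 20 nearest tested genes of its chromosome was taken. These genes reach over unlike distances, the farthest at 0.38 Mb for Pou5f1, 6.765 Mb for Tfcp2l1 and 8.83 Mb for Nr0b1. In GKO the neighbours of Tcl1 had a median of -0.47, with 14 of 20 called lower and 0 called higher. Tcl1 itself was at -0.44. Neighbours of Nr0b1 were at 0.27 (11 of 20 higher), those of Nr5a2 at 0.26 (11 higher), those of Esrrb at 0.21 (11 higher), those of Zfp42 at 0.26 (11 higher) and those of Nanog at 0.22 (10 higher). Zfp42 itself was at -0.01 and Nanog at 0.12, and neither was called. By contrast the neighbours of Tfcp2l1 were at -0.02, those of Prdm14 at -0.06 and those of Tbx3 at -0.12, below the change of each member. In DKO the neighbours of Nanog were at 0.44 (13 higher, 2 lower), above Nanog itself, whereas those of Tbx3 were at -0.11, those of Tfcp2l1 at 0.01 and those of Nr0b1 at -0.25 (12 lower). Those of Esrrb were at 0.23, of Nr5a2 at 0.17, of Zfp42 at 0.17, of Tcl1 at 0.16, of Prdm14 at 0.13 and of Pou5f1 at 0.09.

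**Figure D3:**
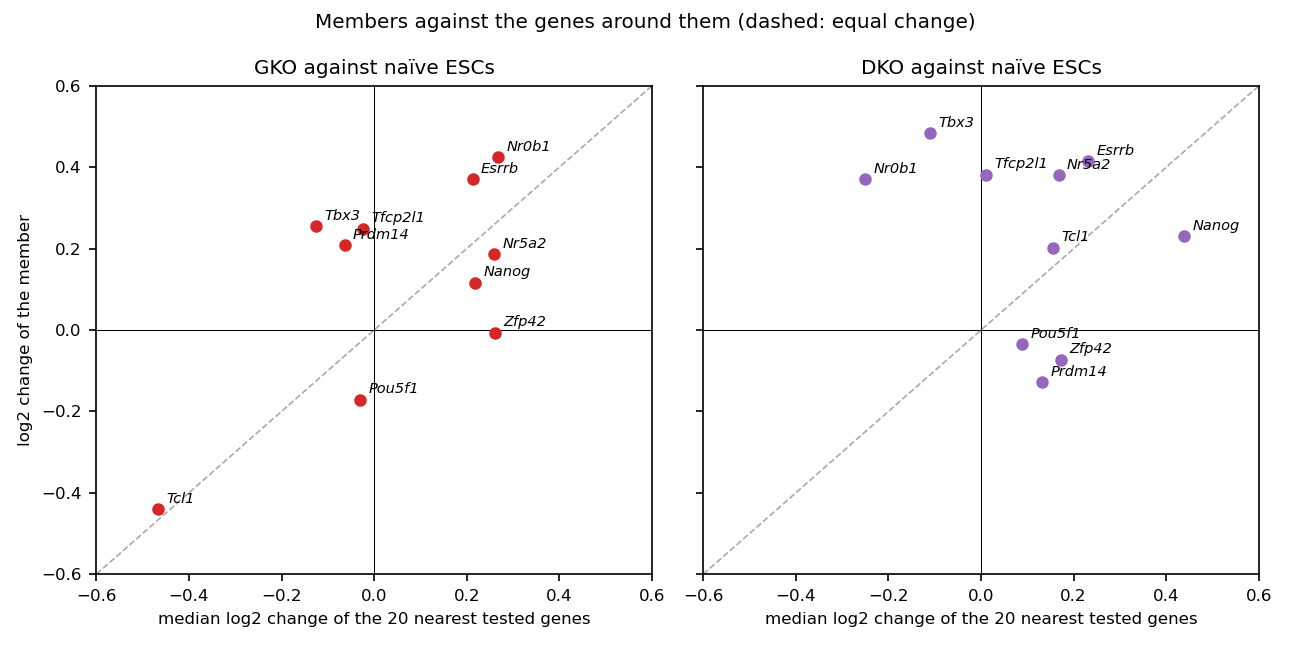
Change of each network gene (vertical axis, log2 scale) against the median change of its 20 nearest tested genes (horizontal axis, log2 scale) in GKO and in DKO against naïve ESCs; the dashed line marks equal change. In GKO, Tcl1 lies at -0.47 and -0.44, close to the line, while Tbx3, Tfcp2l1 and Prdm14 lie above it with neighbours at or below 0.

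As an alternative chosen after seeing the data, each member was centred in each library on its 20 nearest genes and tested again. In GKO the calls remained for Tfcp2l1 (0.24, limma adjusted p = 0.00972), Tbx3 (0.44, limma adjusted p = 0.00464) and Prdm14 (0.24, limma adjusted p = 0.0479). They were lost for Esrrb (0.13, limma adjusted p = 0.124), Nr0b1 (0.11, 0.410), Nr5a2 (0.03, 0.703) and Tcl1 (-0.02, 0.829). Zfp42 (-0.34, limma adjusted p = 0.00967) and Nanog (-0.29, limma adjusted p = 0.00566) were called lower than their surroundings. In DKO the calls remained for Nr0b1 (0.64, limma adjusted p = 0.00127), Tbx3 (0.61, 0.000913), Tfcp2l1 (0.36, 0.00155) and Nr5a2 (0.29, 0.00601), and were lost for Esrrb (0.12, 0.142), Nanog (-0.11, 0.203) and Tcl1 (-0.03, 0.736), while Zfp42 was called lower (-0.30, 0.0206). Between GKO and DKO the difference of Tcl1 was then 0.01 (limma adjusted p = 0.906). Nr0b1 (-0.53, limma adjusted p = 0.00364) and Nanog (-0.18, limma adjusted p = 0.0492) were called lower in GKO. In DKO against AKO the calls were lost for Nanog (-0.16, limma adjusted p = 0.0714), Tcl1 (0.13, 0.156) and Prdm14 (-0.24, 0.0526), and Zfp42 was called lower (-0.27, 0.0292). The interaction for Tcl1 was then -0.16 (limma adjusted p = 0.296), that of Prdm14 was 0.48 (0.0231) and that of Nr5a2 was -0.30 (0.0424), and Nr0b1 was called as well (-0.69, 0.0111). Tfcp2l1 and Tbx3 were therefore the members called higher in both GKO and DKO with and without this centring.

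Tcl1 lies on chromosome 12 (GRCm39, bases 105183009 to 105189235, minus strand). Within 5 Mb of it on either side, 43 other tested genes had a median change of -0.45 in GKO, with 26 called lower and 2 called higher. Of all tested genes, 27.1% were called lower and 24.7% higher in GKO, and 24.3% and 21.7% in DKO. The genes called lower ran from Trip11, 3.38 Mb to the left, to Dlk1, 4.24 Mb to the right. The ends of this stretch were set by the outermost of these calls, and the 2 genes called higher in the window lie outside it. Within these ends 27 of 39 tested genes, Tcl1 included, were called lower in GKO, 0 higher and 12 not called. In DKO the same 5 Mb on either side had a median of 0.19, with 19 called higher and 1 lower. Esrrb lies on the same chromosome (bases 86407887 to 86568409, plus strand) outside this window, and its neighbours had the median of 0.21 in GKO given above. Over all 399 other tested genes of chromosome 12 the median change was 0.02 in GKO, 0.13 in DKO and 0.16 in AKO. Yy1, the relative of Zfp42, lies 3.58 Mb from Tcl1 and changed by -0.65 in GKO (limma adjusted p = 4.00e-05) and by 0.21 in DKO (limma adjusted p = 0.0159).

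**Figure D4:**
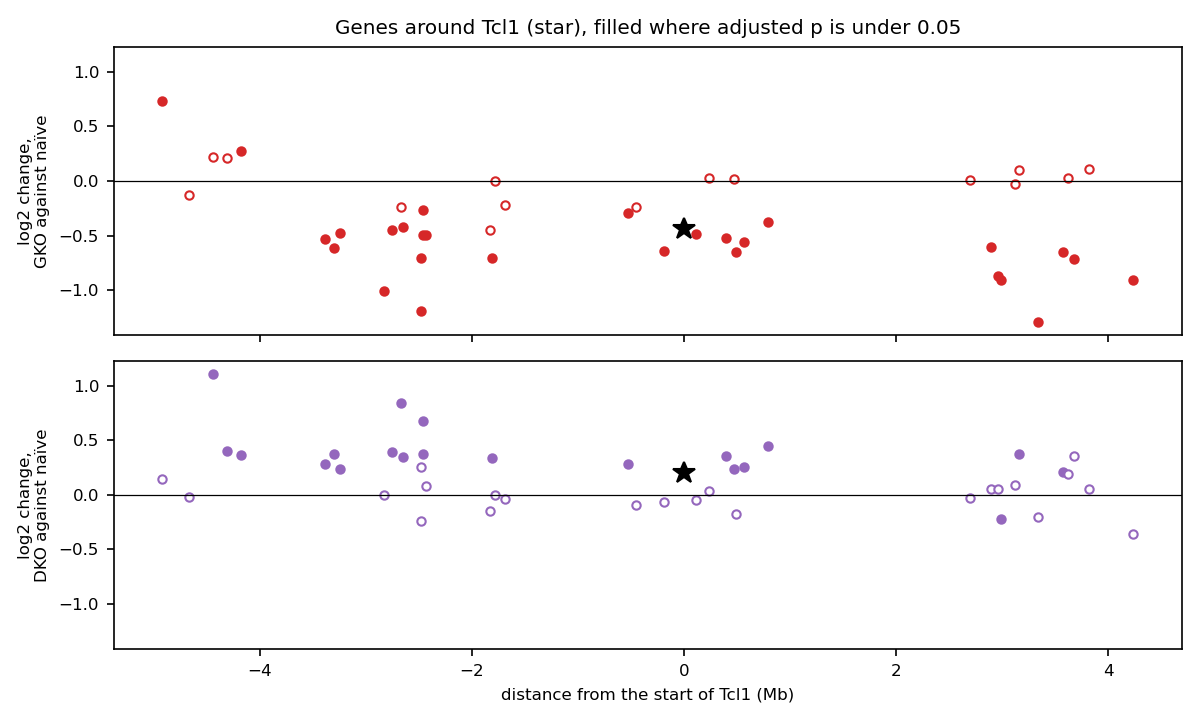
Change of tested genes within 5 Mb of Tcl1 (star) in GKO (top) and DKO (bottom) against naïve ESCs, on the log2 scale, by distance from the start of Tcl1 in Mb; filled points have an adjusted p under 0.05. In GKO the points from -3.38 to 4.24 Mb lie mostly below 0, with Tcl1 at -0.44, and in DKO most of the called points lie above 0.

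Primed ESCs differ from naïve ESCs in medium as well as in state, and these cannot be told apart. All 10 genes were lower in primed than in naïve ESCs, where 42.5% of all tested genes were called lower, with a median change of -5.19. The extent differed widely. Pou5f1 kept 57.4% of its naïve mean (517 and 431 TPM; -0.81, SE 0.09, limma adjusted p = 1.92e-05), Nanog kept 25.0% (104 and 114 TPM; -1.99, SE 0.06) and Nr0b1 kept 7.03% (2.33 and 2.69 TPM; -3.38, SE 0.11). The other 7 genes kept less than 1% of the naïve mean. Nr5a2 was at 0.240 and 0.165 TPM (0.738%), Tbx3 at 0.331 and 0.113 TPM (0.264%) and Tfcp2l1 at 0.277 and 0.211 TPM (0.222%). Esrrb was at 0.236 and 0.214 TPM (0.125%), Prdm14 at 0.0160 and 0.0140 TPM (0.0993%) and Zfp42 at 0.0240 and 0.196 TPM (0.0236%). Tcl1 was at 0.0740 TPM in one library and listed at 0 in the other. The change of Zfp42, -8.72, was the largest of the members on this scale, which understates changes of genes near 0 TPM.

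Beyond the members, 12 other genes of naïve pluripotency were set beside them. All 12 were lower in primed ESCs. In GKO 3 rose, 1 fell and 8 were not called, and in DKO 3 rose and 9 were not called, beside the 24.7% higher and 27.1% lower in GKO and the 21.7% and 24.3% in DKO of all tested genes. These background shares hold for each of the lists that follow, and the share of these 12 genes that rose is near them. Dppa3 (STELLA), a maternal factor that protects DNA from changes in methylation, was at 1.42 and 1.20 TPM in the naïve line, 2.44 and 2.53 in GKO and 4.12 and 5.79 in DKO (0.59 and 1.35, limma adjusted p = 0.00457 and 6.97e-05). Dppa3 starts 0.0932 Mb from Nanog, within the region described above. Spic also rose in GKO (0.32) and Fgf4 fell (-0.22, limma adjusted p = 0.0355), and the dioxygenase gene Tet2 rose in DKO (0.55, limma adjusted p = 7.55e-05). A further 8 genes were listed as common to naïve and primed pluripotency, but 6 of them were lower in primed ESCs, with Tdgf1 at -7.43 and Dppa4 at -5.51. Of these 8, Sall4 alone was called in GKO (0.47, limma adjusted p = 4.84e-05), while Sall4 (0.61) and Zscan10 (0.39) rose and Lin28a (-0.33) fell in DKO.

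Markers of formative and primed pluripotency differed between GKO and DKO. Of the 9 that were tested, 3 rose and 1 fell in GKO, 2 rose and 6 fell in DKO, and all 9 were higher in primed ESCs. The share that rose in GKO is near that over all tested genes, 24.7%, whereas 24.3% of all tested genes fell in DKO. Zic2, a zinc finger factor of this stage, was at 14.4 and 13.7 TPM in the naïve line, 33.7 and 33.3 in GKO, 4.48 and 5.37 in DKO and 86.9 and 110 in primed ESCs. It rose by 1.20 in GKO (SE 0.11, limma adjusted p = 3.97e-05), and its change in DKO was -1.35 (SE 0.11, limma adjusted p = 2.91e-05). Zic5 rose by 0.64 in GKO and fell by 0.81 in DKO (limma adjusted p = 0.00235 and 0.000821). Otx2 was at -0.05 in GKO (limma adjusted p = 0.683) and fell by 0.91 in DKO (limma adjusted p = 1.00e-04). Other genes of the list went another way, since Sox3 fell in both GKO (-0.70, limma adjusted p = 0.00150) and DKO (-0.75), Sall2 rose in both (0.46 and 0.78), and Dnmt3b rose in DKO (0.55) and was at 0.00 in GKO. The interaction was called for 6 of these 9 genes, 5 of them positive, where 25.8% of all tested genes were called in either direction.

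Genes upstream of the circuit were called in both directions. Of 13 genes of the LIF, Wnt and FGF pathways, 2 rose and 3 fell in GKO, and 2 rose and 2 fell in DKO, shares below those over all tested genes. Tcf7l1, the repressor relieved by GSK3 inhibition, was at 34.5 and 35.6 TPM in the naïve line, 27.5 and 26.1 in GKO and 54.9 and 55.7 in DKO (-0.37 and 0.64, limma adjusted p = 0.00117 and 7.76e-05). In GKO, Axin2 (0.46) and Jak1 (0.40) rose, and Spry4 (-0.79) and Lifr (-0.70) fell. Among 9 partners of the members, 3 rose and 1 fell in GKO, and 4 rose and 2 fell in DKO. The rises in both lines include Nr0b1, itself a member, and Sall4, already counted above. Akt1, the kinase that TCL1 binds, was at 24.8 and 25.5 TPM in the naïve line, 14.6 and 15.3 in GKO and 13.1 and 13.7 in DKO (-0.71 and -0.86, limma adjusted p = 1.15e-05 and 6.07e-06), and Ncoa3, a coactivator of ESRRB, rose by 0.35 in GKO and by 0.56 in DKO. Of 17 family relatives 8 were tested. In GKO 2 of these rose, led by Tfcp2 (0.37), and 5 fell, led by Prdm1 (-0.82) and Yy1.

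Markers of other cell types were set beside these results. The 7 trophectoderm markers summed to 38.9 and 38.5 TPM in the naïve line, 64.6 and 65.3 in GKO and 43.8 and 45.5 in DKO, and of the 5 tested 4 were higher in GKO and 3 in DKO. Tfap2c (1.72) and Cdx2 (1.13) had the largest rises in GKO, with Cdx2 at 2.57 and 2.66 TPM in naïve ESCs and 6.62 and 7.27 in GKO. Most of the rise of the sum in GKO was Tfap2c, with means of 6.49 TPM in the naïve line and 23.7 in GKO. Eomes, the largest part of the naïve sum, went the other way without a call (means of 20.1 and 17.3 TPM). Gata3, which was not tested, had means of 0.770 and 0.0745 TPM. The 7 fibroblast markers summed to 3.46 and 2.88 TPM in the naïve line, 7.97 and 9.22 in GKO and 2.38 and 2.44 in DKO. Of the 3 tested, 2 were higher in GKO and 0 in DKO. Thy1, which is not restricted to fibroblasts, made up most of these sums, with 3.00 and 2.44 TPM in the naïve line and 7.14 and 8.48 in GKO. Col1a1 was at 0.284 and 0.210 TPM in the naïve line, 0.739 and 0.724 in GKO and 0.373 and 0.362 in DKO. Col1a2 had a mean of 0.0715 TPM in the naïve line and 0.050 in GKO, and Dcn, Lum and Postn were listed at 0 in GKO. Over the 8 libraries other than primed, markers of primitive endoderm summed to between 1.21 and 2.43 TPM. Their sums were 1.861 and 1.729 TPM in the naïve line, 2.293 and 2.429 in GKO and 1.347 and 1.209 in DKO. Those of early-cleavage-like cells, of which 0 were tested, summed to between 0.204 and 2.90 TPM. They were at 1.258 and 1.555 TPM in the naïve line, 0.204 and 0.268 in GKO and 2.903 and 2.312 in DKO. The part of these in the changes of the members was not tested.

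The genes with the most similar pattern over the 4 changes from naïve ESCs (AKO, GKO, DKO and primed) were named by the smallest root-mean-square difference on the log2 scale, among 8012 candidates. Pou5f1 was closest to Pfdn1, a prefoldin subunit, at 0.00534, and to Rpa2, of the replication protein A complex, at 0.0195. Nanog was closest to Crtap (0.0582) and Prdm14 to M1ap (0.0603). Tfcp2l1 was closest to Tdh (0.194), which encodes threonine dehydrogenase, Esrrb to Tdgf1 (0.258) and Zfp42 to Spp1 (0.546). The primed change is the largest and weighs most, so a named gene can differ from its member in the knockout lines. Tdgf1 was at 0.06 in GKO and 0.07 in DKO, against 0.37 and 0.42 for Esrrb. Spp1 was at 0.39 and 0.54, against -0.01 and -0.07 for Zfp42. Pfdn1 was close to Pou5f1 there as well, at -0.18 and -0.04 against -0.17 and -0.03. Tbx3 was closest to AU018091 (0.202), Nr5a2 to Zfp936 (0.172), Nr0b1 to Lpar5 (0.144) and Tcl1 to Arl14epl (0.166). Arl14epl also shared the lower level in GKO, at -0.55, with 0.13 in DKO.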

How the data were processed

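Bulk RNA was sequenced from 5 mouse ESC lines with 2 libraries each. The authors trimmed reads with Trim Galore 0.6.6, aligned them with STAR and estimated expression with RSEM 1.3.3, and deposited TPM values per protein-coding gene. The paper names GRCm39, whereas the submitters' processing notes name GRCm38 and GRCh38. STAR 2.7.9a is the version in these notes and in the paper's list of software, while its methods text gives another. The labels describe an Illumina kit for every library, and the paper's methods an MGI kit for J1, GKO and PJ1. The tables hold no coordinates, so positions are those of GRCm39 matched by symbol. TPM keeps no depth, so the precision from read number is unknown.

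Libraries were assigned to lines from their titles, and 0 further columns of values were present. The 12060 genes that reached 1 TPM in 2 or more libraries were tested as log2(TPM + 1) with limma 3.58.1 in R 4.3.3, with one mean per line, a spread shared by all lines, an intensity trend and Benjamini-Hochberg adjustment (threshold 0.05). A gene is called where it passed. For a single value, 2 libraries against 2 allow no two-sided exact p below 0.333. Intervals are 95% confidence intervals from limma.

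All 10 members are named. Of each other list, up to 2 called rises and 2 called falls per comparison could be named, together with the 3 genes most like each member and the targeted genes; Eif2s3y, Ddx3y, Trip11 and Dlk1, and Tcl1b genes, were named after their values were seen. The members and lists were chosen with earlier results of these data known. Motifs were searched in RefSeq promoter windows of GRCm38.p6 with Python 3.11.15. Alternatives were another pseudocount, other filters, quantile normalization, median-ratio scaling, no trend, the replicate number as a block, fewer libraries, each library left out, and centring on chromosomes or nearest genes. No library was left out of the main results.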

Additional observations from a re-analysis of the deposited data

Results flagged for a closer look

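For 3 of the 10 members the effect of the Gys1 knockout differed with and without the AMPK alpha 1 knockout by the test of the interaction in limma. This share is near the 25.8% of all tested genes that were called. The change in GKO against naïve ESCs minus that in DKO against AKO was 0.42 for Prdm14 (limma adjusted p = 0.0172), -0.35 for Nr5a2 (limma adjusted p = 0.0138) and -0.63 for Tcl1 (limma adjusted p = 0.000986). Both GKO libraries of Prdm14 and both DKO libraries of Nr5a2 lay above those of the other lines, and both GKO libraries of Tcl1 lay below those of naïve ESCs, AKO and DKO. The 20 genes nearest to Tcl1 had a median interaction of -0.48, with 12 called negative and 0 called positive, while those nearest to Prdm14 were at -0.09 and those nearest to Nr5a2 at 0.09. Each line may be 1 clone, so a difference between clones and an interaction of the knockouts cannot be told apart.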

How the results depend on the processing

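Each comparison was recomputed under the alternatives, with the number of members called as follows. With log2(TPM + 0.1), 3 members were called in GKO, 5 in DKO against AKO and 1 in the interaction. Without the primed libraries, and after centring on chromosomes, 5 were called in GKO against DKO. After centring on chromosomes these included Nanog, lower in GKO (-0.32, limma adjusted p = 0.00351). Zfp42 was then called lower in DKO against AKO (-0.17, limma adjusted p = 0.0473). With each library left out, the calls lay between 3 and 5 in GKO, 4 and 7 in DKO, 5 and 6 in DKO against AKO, 1 and 3 in GKO against DKO and 1 and 3 in the interaction; AKO stayed at 0 and primed ESCs at 10. Over all genes, AKO gave between 1 and 175 calls, 92 with only the libraries compared. Replicate numbers did not pair the samples, as correlations of same-numbered deviations lay between -0.13 and 0.08. With the replicate block 7 members were called in GKO, 7 in DKO, 0 in AKO, 4 in GKO against DKO, 7 in DKO against AKO, 3 in the interaction and 10 in primed ESCs, and 8 genes in all in AKO; it ended the call for Nanog in DKO against AKO (0.0579) and made one for Tbx3 in GKO against DKO (0.0493).

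Some directions changed, called ones included. After centring on the 20 nearest genes the called differences of Tcl1 between GKO and DKO (-0.64) and in DKO (0.20), and of Nanog in DKO (0.23) and in DKO against AKO (0.18), changed sign and were not called, and Nanog in GKO and Nr0b1 in GKO against DKO changed sign and were called. Under quantile normalization Pou5f1 was at 0.051 in GKO, 0.13 in DKO and 0.17 in DKO against AKO, and Zfp42 at 0.080 in GKO and -0.0081 in AKO. After centring on chromosomes Nanog was at -0.037 in GKO, Esrrb at -0.053 and Tcl1 at -0.17 in AKO, Esrrb at 0.11 and Nr0b1 at -0.074 in GKO against DKO, and Pou5f1 at 0.0096 in DKO against AKO. After centring on the 20 nearest genes, added after seeing the data, Nanog was at -0.29 in GKO, -0.11 in DKO and -0.16 in DKO against AKO, and Tcl1 at -0.033 in DKO. In AKO, Esrrb was at -0.064, Zfp42 at -0.024, Tbx3 at 0.019 and Tcl1 at -0.17. In GKO against DKO, Esrrb was at 0.0042, Zfp42 at -0.046, Nr0b1 at -0.53 and Tcl1 at 0.012, and the interaction was -0.059 for Esrrb and -0.070 for Zfp42. With a library left out, ranges that crossed 0 were -0.032 to 0.019 for Zfp42 in GKO, -0.090 to 0.021 for Pou5f1 in DKO, -0.020 to 0.031 for Zfp42, -0.099 to 0.018 for Tbx3 and -0.030 to 0.045 for Tcl1 in AKO, -0.059 to 0.17 for Nr0b1 in GKO against DKO and -0.062 to 0.049 for Pou5f1 in DKO against AKO. For the interaction they were -0.13 to 0.0054 for Nanog and -0.23 to 0.021 for Nr0b1. The cause was not tested. TPM keeps no depth, so the part of read number in calls that were lost with 1 library could not be assessed.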
